A study of Glycine max with 14 samples.

Results

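The 100 soybean gene models described here were those whose transcript level varied least across developing seed coats. They were selected on the measured values themselves. Of the 69425 complete gene models in the table (61337 loci), 7538 gene models of 5258 loci had at least 10 rescaled RPKM (alignments divided by the length of the gene model and by the total of the library) in every one of the 14 libraries and were eligible. The 100 with the smallest standard deviation (SD) of log2 RPKM over the 14 libraries were taken, and they belonged to 65 loci. Because all 14 libraries chose the members, their spread, line differences and stage differences are given as a description, with no test. The table was held only in part, so gene models beyond its end were not ranked here.

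The seed coats came from 2 greenhouse-grown Clark-background isolines that are homozygous for the recessive i and the dominant T alleles. RM30-R* has black seed coats and is a stable revertant of the variegated line RM55. It still carries the CACTA transposon TgmR* in an intron of R, which encodes a MYB transcription factor. RM38-r has brown seed coats, and its recessive r allele has a single base deleted. Seed coats were dissected in 4 classes of whole seed fresh weight between 100 and 500 mg, each 100 mg wide, and from desiccating seeds of 300–400 mg, which are given last as the most advanced stage. Each line had 7 libraries, with 2 at 300–400 mg and 2 at 400–500 mg and 1 at each of the other 3 stages. The replicates at 400–500 mg were independent extractions per the study, while those at 300–400 mg are known only to be separate samples, so their spread may be partly technical. Replicate numbers follow the order of deposition and do not link the lines. Each genotype is represented by a single isoline.

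The seed coat is the maternal tissue around the embryo. It moves nutrients from the mother plant towards the embryo while it grows, and later dries down and becomes the pigmented skin of the seed. Genes with steady transcript levels serve as internal references when the level of another gene is compared between samples. Such genes often act in tasks that every cell carries out, such as protein synthesis and breakdown, RNA processing and vesicle traffic. The gene annotation available here paired none of the Glyma1 identifiers with a name, so the members are given by identifier and no function is assigned to them. In whole seed coats, fewer cells of a type and less RNA per cell cannot be told apart.

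The libraries held 49509767 to 120239041 alignments in all, recovered from the smallest steps of the RPKM values. Loci whose names start with Glyma13g118 or Glyma13g119 (28 gene models) were dropped before rescaling. They held 36.2% of all RPKM in replicate 1 of RM38-r at 300–400 mg and 19.1% in replicate 1 of RM38-r at 400–500 mg, against 0.659% to 6.09% in the other 12 libraries. RPKM is a share of a fixed total, and each column was then multiplied by 1 factor so that all 75th percentiles were equal. The factors were 1.53 and 1.11 in those 2 libraries and 0.917 to 0.999 in the rest. All RPKM below are rescaled unless they are called deposited.

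Genes of the pigment pathway that the study identified are given as a contrast to the members. All libraries were labelled seed coat, so these values do not check that label against another tissue. CHS7 (Glyma01g43880.1), which encodes a chalcone synthase, the first committed enzyme of flavonoid synthesis, was at 494 RPKM in RM30-R*, against 498 RPKM in RM38-r at 100–200 mg. At desiccation it was at 18.8 RPKM in RM30-R*, against 19.5 RPKM in RM38-r. ANS3 (Glyma11g03010.1), an anthocyanidin synthase gene that acts late in pigment synthesis, had 37.7 and 18.7 RPKM in RM30-R*, against 4.20 and 5.97 RPKM in RM38-r at 400–500 mg. Over the 14 libraries the highest value was 26.5 times the lowest for CHS7 and 89.6 times the lowest for ANS3, and the SD of log2 RPKM of 7 pathway genes ran between 1.35 and 1.91. The members stood at the other end of the scale.

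The SD of log2 RPKM of the 100 members ran between 0.0575 and 0.107, with a median of 0.0938, against a median of 0.254 and a highest value of 2.33 over all 7538 eligible gene models. The highest library of a member was 1.14 to 1.35 times its lowest, with a median of 1.247, against a median of 1.83 for all eligible gene models. For 86 members the highest library was less than 1.3 times the lowest. None of the members spanned 2-fold, whereas 2885 eligible gene models (38.3%) did. These values chose the members and support nothing further.

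**Figure D1:**
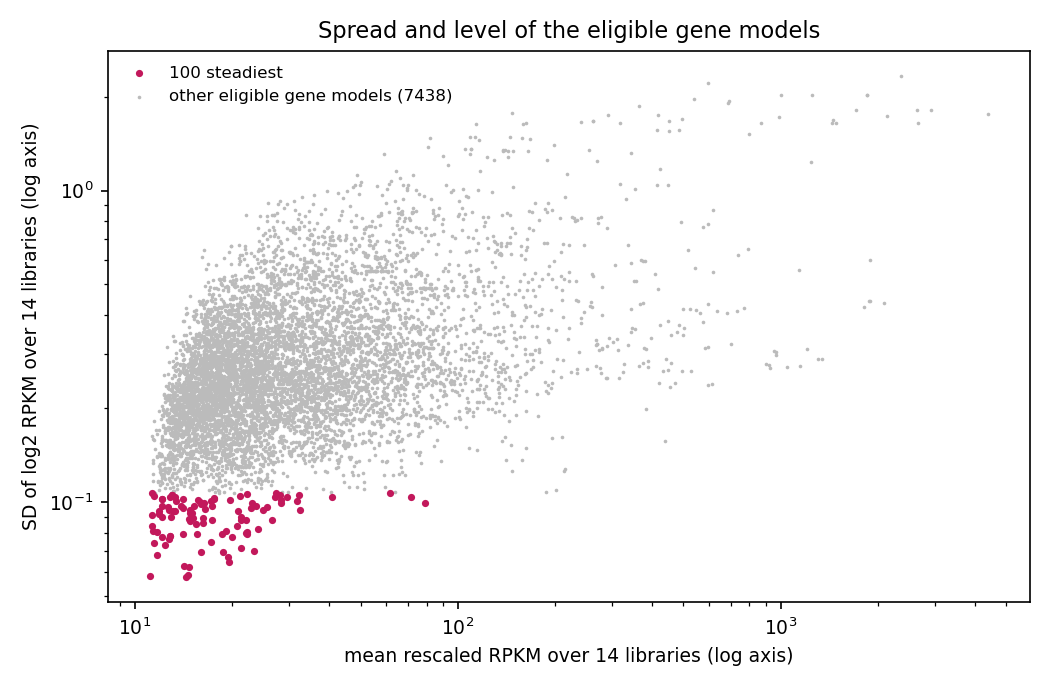
Each point is 1 eligible gene model, with its mean rescaled RPKM over 14 libraries on the horizontal log axis and the SD of its log2 RPKM on the vertical log axis. The 100 steadiest (red) lie at SDs of 0.0575 to 0.107 and mean levels of 11.1 to 79.4 RPKM, under the other eligible gene models (grey).

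Glyma08g19520 led the ranking. All 4 of its gene models were members, at ranks 1, 3, 4 and 5. In RM30-R*, Glyma08g19520.4 was at 13.7 RPKM at 100–200 mg, 14.9 at 200–300 mg, 13.5 and 14.5 at 300–400 mg, 15.3 and 14.5 at 400–500 mg and 14.5 at desiccation. In RM38-r the same gene model was at 14.4, 14.7, 14.4 and 13.4, 14.9 and 15.1, and 14.2 RPKM at the same stages in that order. The ranges of the lines overlapped, with the lowest and highest values in libraries of 300–400 mg RM38-r and 400–500 mg RM30-R*. It averaged 14.4 ± 0.608 RPKM in RM30-R*, against 14.4 ± 0.576 RPKM in RM38-r (SD, n = 7 each).

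The second steadiest gene model, Glyma03g00730.1, was also the member with the lowest mean level (11.1 RPKM). In RM30-R* its values were 11.0, 11.3, 10.9 and 10.1, 10.8 and 10.9, and 11.5 RPKM over the 5 stages. In RM38-r they were 11.2, 10.8, 11.0 and 10.8, 11.6 and 11.6, and 11.8 RPKM. The desiccating library was the highest of its line in both lines, by less than 1 RPKM.

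Glyma12g08330.1, at rank 6, had 18.1, 19.1 and 20.1 RPKM as its lowest, median and highest value in RM30-R* and 18.6, 20.3 and 21.0 RPKM in RM38-r. Glyma07g02470 placed its 3 gene models between ranks 7 and 12. Its model 2 had a lowest, median and highest value of 18.4, 19.5 and 21.0 RPKM in RM30-R*, against 17.8, 19.2 and 20.5 RPKM in RM38-r (Glyma07g02470.2). The lines overlapped over most of their range in both loci.

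Glyma03g31670.2, at rank 8, was closer together in RM30-R* (11.3 to 11.9 RPKM) than in RM38-r (10.8 to 12.9 RPKM). Both ends of the RM38-r range were the 2 replicates at 300–400 mg. Glyma16g32250.1, at rank 10, had 14.95 to 17.4 RPKM in RM30-R*, against 15.6 to 17.2 RPKM in RM38-r, and here the RM30-R* replicates at 300–400 mg stood apart, at 17.4 and 14.96 RPKM. In both gene models the spread between replicates of 1 stage was as wide as the spread between stages.

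**Figure D2:**
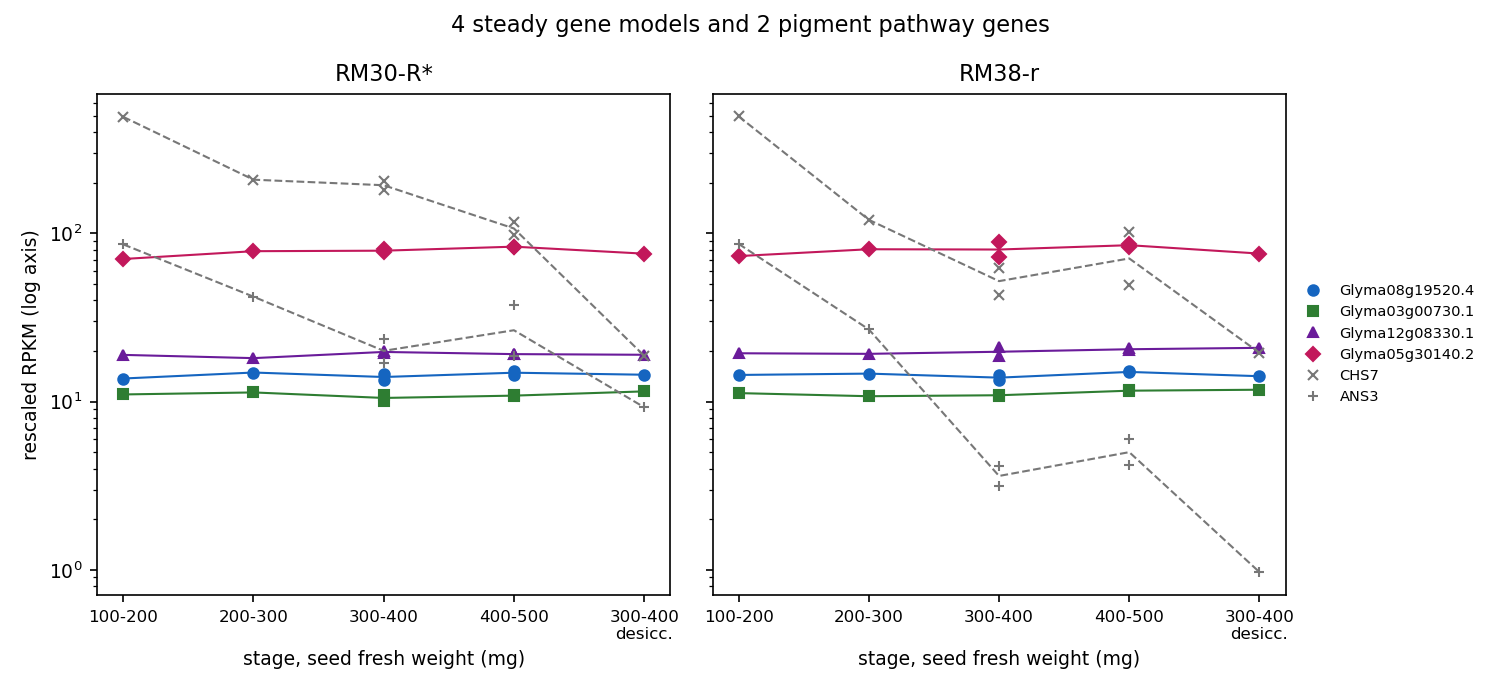
Rescaled RPKM (log axis) of 4 steady gene models (solid lines) and of the pigment genes CHS7 and ANS3 (dashed lines) at 5 stages, with RM30-R* on the left and RM38-r on the right. Points are single libraries and lines join the geometric means of each stage. The steady gene models run flat, with highest-to-lowest ratios of 1.14 to 1.26, while CHS7 spans 26.5-fold.

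Most members had low to moderate levels. Their mean level had a median of 16.0 RPKM, against 25.6 RPKM over all eligible gene models. Of the members, 42 had a mean of 10 to 15 RPKM, 26 of 15 to 20, 25 of 20 to 30, 4 of 30 to 50 and 3 of 50 to 100, and 0 were above 100 RPKM, where 562 eligible gene models lay. The minimum of 10 RPKM bounds the spread of gene models close to it, because one that dipped under the minimum was not eligible. The median SD of the eligible gene models was 0.184 for means of 10 to 15 RPKM and 0.399 for means above 100 RPKM.

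The 5 members with the highest level were Glyma05g30140.2, Glyma08g13300.1, Glyma08g13300.3, Glyma08g43250.2 and Glyma13g39410.1, with means of 79.4, 71.6, 61.5, 40.8 and 32.5 RPKM. Glyma05g30140.2 had a lowest, median and highest value of 70.5, 78.5 and 83.6 RPKM in RM30-R*, against 72.5, 80.6 and 88.9 RPKM in RM38-r. Its lowest library in RM30-R* was the one at 100–200 mg. In RM38-r its lowest and highest libraries were the replicates at 300–400 mg, at 72.5 and 88.9 RPKM, so the pair at 1 stage covered the whole range of that line. Glyma08g13300.1 was at 80.8 RPKM in replicate 2 of RM30-R* at 400–500 mg and 83.5 RPKM in replicate 2 of RM38-r at that stage, above each of its other 12 values (64.6 to 74.9 RPKM).

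The threshold separated gene models with nearly equal values. The members at ranks 98 to 100, Glyma16g06270.3, Glyma08g44120.2 and Glyma08g13300.3, had SDs of 0.107, 0.10703 and 0.10705. The first gene models left out, Glyma12g09700.1, Glyma09g15980.2 and Glyma19g31610.4, had SDs of 0.10716, 0.10729 and 0.10752.

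Counting error covered only some of the members' spread. With 1 whole-number length fitted per gene model, the deposited values came out as whole alignments, to within 0.02 of an alignment in every library, for all 7538 eligible gene models. The lengths so recovered were 545 to 3783 nt for the members (median 1704 nt) against a median of 1440 nt for all eligible. In the library where it had the fewest, a member had 223 to 5915 alignments. The Poisson SD that follows from the alignments, on the log2 scale, had a median of 0.0331 over the members, and the observed SD was 1.29 to 7.21 times that value, with a median of 2.63. For all eligible gene models the median ratio was 9.27. Glyma03g00730.1 was closest to its counting error, with an observed SD of 0.0582 and a counting SD of 0.0452. Glyma05g30140.2 was the farthest from it, with 0.0998 and 0.0138. A read was counted at each place where it aligned, so these figures cover counting error only and treat shared reads as independent.

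The spread between replicates was of the same size as the spread over all libraries. The SD between replicates, pooled over the 4 line and stage combinations that had 2 libraries, had a median of 0.0974 for the members and 0.204 for all eligible gene models. In 58 members the SD over 14 libraries was at or under the replicate SD, as it was in 29.7% of the eligible gene models. Of a member's sum of squares, a median of 40.1% lay between stages, 20.2% between lines within a stage and 34.9% between replicates. Over all eligible gene models the medians were 62.5%, 13.1% and 20.3%. The 3 parts have 4, 5 and 4 degrees of freedom, in that order, so equal shares would not mean equal variation. The rule itself bears on these shares, since it favours gene models with little variation between stages.

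**Figure D3:**
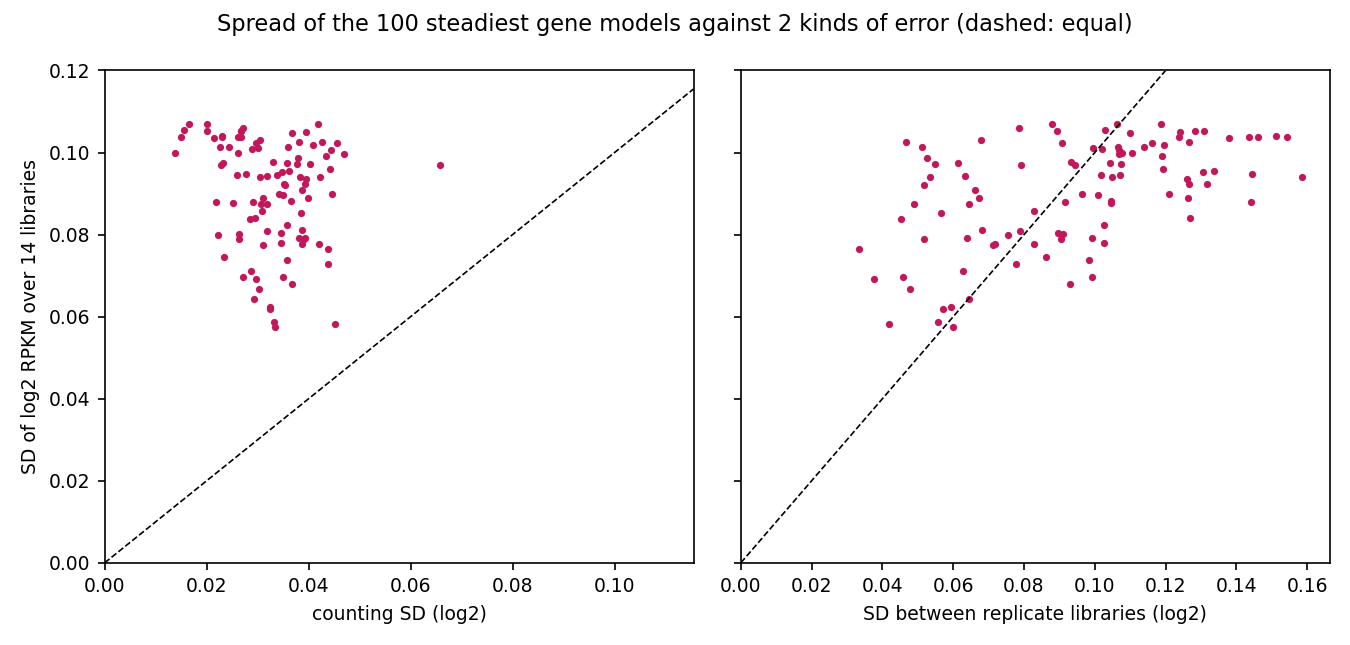
Each point is 1 of the 100 members, with the SD of its log2 RPKM over 14 libraries on the vertical axis. On the left it is plotted against the counting SD from recovered alignments and every point is above the dashed line of equality. On the right it is plotted against the SD between replicate libraries, and 58 points lie on or under the line.

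The 100 gene models were not 100 separate genes. Alternative gene models of 1 locus share exons and therefore reads. Of the 65 loci, 39 had 1 member model and 26 had more than 1, which together made 61 of the 100 members. Glyma08g19520 and Glyma16g25450 had 4 members each. Glyma07g02470, Glyma03g31670, Glyma05g05010, Glyma13g33000 and Glyma13g31720 had 3 each. The 19 loci with 2 members were Glyma16g32250, Glyma13g08090, Glyma10g08550, Glyma03g36510, Glyma08g35460, Glyma19g39170, Glyma09g01840, Glyma03g00740, Glyma12g32060, Glyma13g16540, Glyma03g04500, Glyma07g02730, Glyma11g16030, Glyma20g03020, Glyma08g13300, Glyma04g40900, Glyma08g43250, Glyma08g44120 and Glyma06g13930. Within these 26 loci, the log2 profiles of the member models, each centred on its own mean, differed at most by 0.00767 to 0.174 in any library (median 0.0387), and in 3 loci by less than 0.02. The widest gap was in Glyma16g32250, whose model 1 and model 2 had lengths of 2505 and 1036 nt and mean levels of 16.0 and 23.4 RPKM (Glyma16g32250.1 and Glyma16g32250.2).

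The 39 loci with a single member were Glyma03g00730, Glyma12g08330, Glyma07g22950, Glyma16g32260, Glyma08g20940, Glyma18g08640, Glyma10g34180, Glyma15g39830, Glyma06g10010, Glyma06g17710, Glyma02g26620, Glyma11g14640, Glyma03g14740, Glyma05g06450, Glyma05g32260, Glyma13g22210, Glyma17g03140, Glyma04g41040, Glyma08g36790, Glyma13g39410, Glyma13g25860, Glyma06g01840, Glyma13g33260, Glyma04g40220, Glyma03g30740, Glyma05g30140, Glyma14g16680, Glyma03g32910, Glyma14g13540, Glyma17g06140, Glyma19g35620, Glyma12g02820, Glyma18g04160, Glyma15g15960, Glyma12g06580, Glyma01g04930, Glyma10g01210, Glyma13g19640 and Glyma16g06270. Their mean levels ran between 11.1 and 79.4 RPKM. Loci with several gene models in the table made up 49.2% of the member loci, against 31.6% of the eligible loci and 9.36% of all loci, and a locus with several models had several chances to enter.

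In 59 of the 65 loci every eligible gene model was a member. The 6 exceptions were Glyma12g32060, Glyma05g30140, Glyma14g16680, Glyma15g15960, Glyma08g13300 and Glyma06g13930. For many of the 59 this holds by definition. Of the 65 loci, 33 had only 1 gene model in the table, and Glyma13g25860, Glyma12g02820 and Glyma16g06270 had only 1 eligible model. The count is therefore no measure of how alike the gene models of a locus were. The least steady eligible model of Glyma12g32060 was at rank 615, with an SD of 0.146, while its best model was at rank 60, with an SD of 0.0959. For Glyma05g30140, which had the highest level of all members, the other eligible model was at rank 242.

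Some members of different loci had nearly the same residual profile. These pairs were picked for their likeness, measured as the largest gap between 2 centred log2 profiles over the 14 libraries. Glyma16g25450.4 and Glyma03g04500.2 differed by at most 0.0645, Glyma18g08640.1 and Glyma08g44120.1 by 0.0666, and Glyma19g39170.2 and Glyma03g36510.1 by 0.0731. Glyma19g39170.2 and Glyma03g36510.1 were each highest in the same library, replicate 2 of RM30-R* at 400–500 mg, at 23.8 and 28.3 RPKM, with 19.3 and 22.9 RPKM in the other replicate of that group. Whether reads were shared between the loci of a pair was not tested. By contrast, the loci with neighbouring names, Glyma16g32250 with Glyma16g32260 and Glyma03g00730 with Glyma03g00740, had gaps of at least 0.144.

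By the locus names, the members were spread over all 20 chromosomes. Chromosome 13 held 9 of the 65 loci (13.8%, against 7.32% of the eligible loci), chromosome 3 held 8 (12.3% against 4.55%) and chromosome 8 held 7 (10.8% against 7.82%). The other 17 chromosomes had 1 to 4 loci each.

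The rule left little room for line differences in the members. The mean difference in log2 RPKM over the 5 stages, RM30-R* minus RM38-r, ran between -0.0996 and 0.0896 with a median of -0.00914. In 0 members were the libraries of RM30-R* above those of RM38-r at all 5 stages, as they were in 0.252% of the eligible gene models, and in 0 members were they below at all 5 stages, as in 0.305% of the eligible gene models. Leaving out replicate 1 of RM38-r at 300–400 mg gave 2 members above (0.637% of the eligible gene models) and 1 below (0.544%). Leaving out replicate 2 of RM30-R* at 300–400 mg, replicate 2 of RM30-R* at 400–500 mg or replicate 2 of RM38-r at 400–500 mg gave 1 below in each case, beside 0.398%, 0.425% and 0.491% of the eligible gene models in that order. With no rescaling, 2 members were above (0.703% of the eligible gene models).

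At the stages with replicates, single-stage differences were present in some members. At 300–400 mg both RM30-R* libraries were above both RM38-r libraries in 10 members (10.7% of the eligible gene models) and below in 5 (11% of the eligible gene models). At 400–500 mg they were above in 8 members (10.9% of the eligible gene models) and below in 9 (6.55% of the eligible gene models). By stage means alone, 3 members were higher in RM30-R* at all 5 stages (2.98% of the eligible gene models) and 7 were lower (3.3% of the eligible gene models). The 7 included all 3 gene models of Glyma03g31670, and the 3 included both of Glyma20g03020. Gene models of 1 locus share reads, so these counts are not of separate loci.

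Of these same-sign differences, the largest averaged over the 5 stages were as follows. Glyma19g35620.1 had 17.6, 17.5, 18.2 and 20.1, 16.7 and 17.6, and 18.1 RPKM in RM30-R* over the 5 stages, against 16.6, 15.6, 19.9 and 17.7, 16.1 and 17.4, and 16.6 RPKM in RM38-r. Its mean difference was 0.0874 on the log2 scale, and the replicates of the lines overlapped at 300–400 and 400–500 mg. Glyma20g03020.2 had a mean difference of 0.0869 and was at 31.6 RPKM in RM30-R*, against 28.6 RPKM in RM38-r at desiccation. In the opposite direction, Glyma13g22210.1 had 10.7, 10.4, 10.9 and 10.6, 10.4 and 11.2, and 12.5 RPKM in RM30-R*, against 11.4, 11.9, 12.0 and 11.3, 11.8 and 10.8, and 12.5 RPKM in RM38-r. Its mean difference was -0.0937, with overlap at 400–500 mg and nearly equal values at desiccation. Glyma12g08330.1 followed with a mean difference of -0.0708.

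The difference at desiccation had a median size of 0.0546 on the log2 scale in the members and 0.284 over all eligible gene models, and that at 100–200 mg 0.0579 and 0.253. The line difference had a median size of 0.0263 in the members and 0.0641 over all eligible gene models, but it averages 7 libraries against 7, while each stage difference rests on 2 libraries, so the sizes are not comparable. The mean of the 2 desiccating libraries minus the mean of the other 4 stages ran between -0.155 and 0.222 on the log2 scale in the members (median -0.0029), against -4.74 and 3.01 over all eligible gene models (median -0.0525). Both desiccating libraries were above the other 12 in 5 members (12.4% of the eligible gene models) and below them in 0 (14.6% of the eligible gene models). The 5 were Glyma16g25450.2, Glyma13g22210.1, Glyma03g30740.1, Glyma03g04500.1 and Glyma15g15960.2. The count above became 9 without the desiccating RM30-R* library (18.4% of the eligible gene models), 13 without the desiccating RM38-r library (15.5%) and 10 without replicate 2 of RM30-R* at 400–500 mg (12.8%). The count below became 6 without the desiccating RM30-R* library (25.4%), 6 without the desiccating RM38-r library (16%) and 1 without the RM30-R* library at 200–300 mg (14.8%). The standing of the members against the background turned with the rescaling. With median ratio rescaling in place of the 75th percentile, 27 members were above, more than the 18.6% of the eligible gene models. With quantile normalization 3 were above (12.2%) and 2 below (16.8%), and with no rescaling 3 were above (14%).

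Glyma15g15960.2 had the largest difference at desiccation. It was at 19.1 RPKM in RM30-R*, against 20.8 RPKM in RM38-r at desiccation, and at 16.3 to 18.7 RPKM in the other 12 libraries. Glyma03g04500.1 was at 16.2 RPKM in RM30-R*, against 14.8 RPKM in RM38-r at desiccation, which put the RM38-r library just above its other stages. Its lowest value, 12.0 RPKM, was at 100–200 mg in RM38-r, and its highest was 1.35 times that value, the widest ratio of all members. Glyma17g03140.1 was lowest in each line at desiccation, at 10.3 RPKM in RM30-R*, against 11.2 RPKM in RM38-r, but another RM30-R* library (200–300 mg, 11.1 RPKM) lay between them. Glyma08g36790.1 was at 11.4 RPKM in RM30-R*, against 12.1 RPKM in RM38-r at desiccation and at 11.4 RPKM in RM30-R* at 200–300 mg as well.

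At the youngest stage, the members were on the low side, but less so than all eligible gene models. The mean at 100–200 mg minus the mean of the other 4 stages had a median of -0.0417 in the members and -0.144 over all eligible gene models. Both libraries of 100–200 mg were below the other 12 in 6 members (16.9% of the eligible gene models) and above them in 0 (5.33% of the eligible gene models). The 6 were Glyma10g01210.1, both gene models of Glyma08g35460, Glyma08g20940.1, Glyma16g25450.4 and Glyma03g04500.1. Glyma10g01210.1 had the largest difference, with 28.1 RPKM in RM30-R*, against 28.7 RPKM in RM38-r at 100–200 mg and 29.5 to 35.8 RPKM in the other 12 libraries. The count below became 15 without the RM30-R* library at 100–200 mg, where the share of the eligible gene models was 23.4%, and 10 without the RM38-r library at that stage, where it was 28.5%. The count above became 2 without the RM30-R* library at that stage (10.2% of the eligible gene models), 2 without the RM38-r library (8.32%) and 1 without replicate 1 of RM38-r at 300–400 mg (5.69%). It was 3 with quantile normalization (6.33%). The count below was 3 with median ratio rescaling (17.2%) and 0 with no rescaling (6.35%).

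The residual deviations differed between libraries. The median deviation of the members from their own means was lowest in the RM30-R* library at 100–200 mg (-0.0426 on the log2 scale) and highest in replicate 2 of RM38-r at 400–500 mg (0.0540). Replicate 2 of RM38-r at 300–400 mg held the lowest value of 18 members, the most of any library, and 10 members there were over 0.2 from their mean, against 0 to 4 in each other library. Replicate 2 of RM30-R* at 400–500 mg held the highest value of 15 members, and replicate 2 of RM38-r at that stage that of 14. The median deviation of all eligible gene models was also below 0 in the RM30-R* library at 100–200 mg (-0.146) and in replicate 2 of RM38-r at 300–400 mg (-0.0930). It was above 0 in replicate 2 of RM30-R* at 400–500 mg (0.0436) and in replicate 2 of RM38-r at that stage (0.0364). The members and all eligible gene models had medians of the same sign in 9 libraries and of opposite sign in 5. Those 5 were the RM30-R* library at 200–300 mg (-0.0228 for the members and 0.0353 for all eligible), replicate 1 of RM30-R* at 300–400 mg (-0.0198 and 0.0483), the desiccating RM30-R* library (0.00498 and -0.0228), the RM38-r library at 200–300 mg (-0.0213 and 0.104) and the desiccating RM38-r library (0.0112 and -0.0739).

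**Figure D4:**
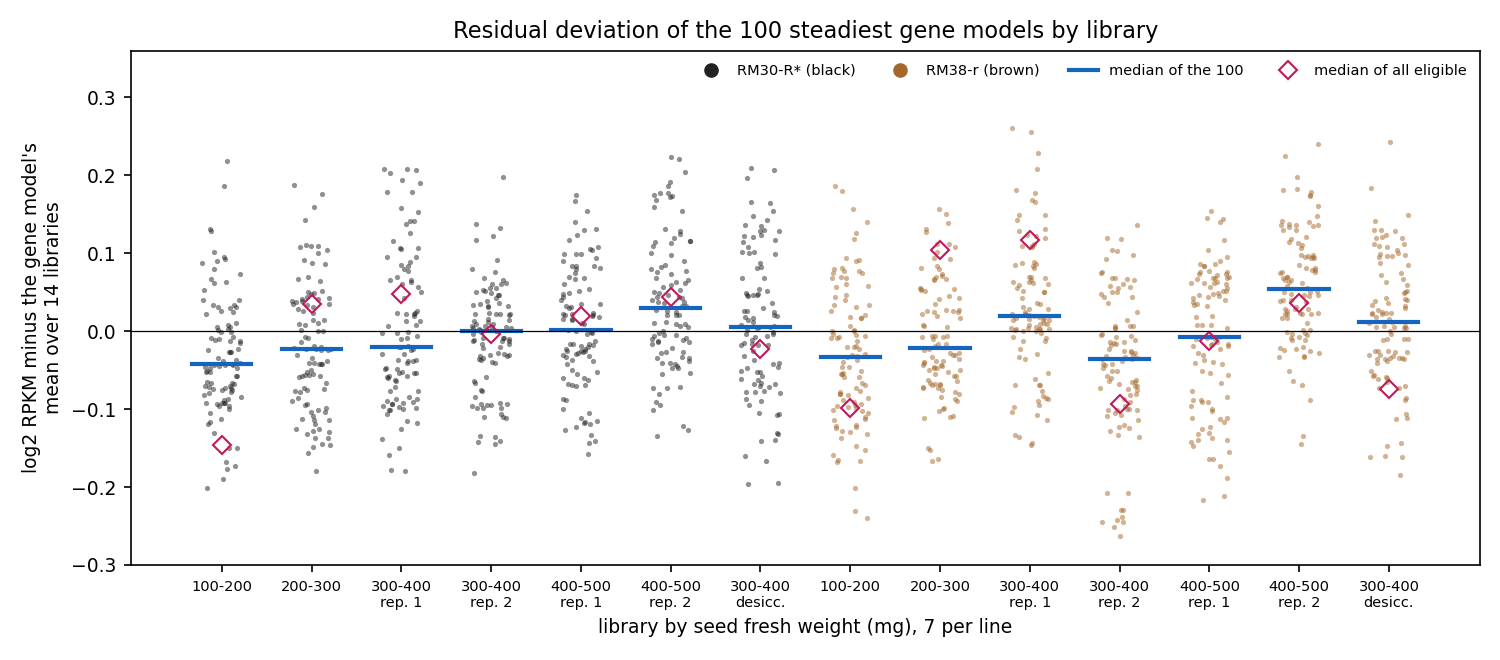
Log2 RPKM of each of the 100 members minus its mean over 14 libraries, by library, with the 7 RM30-R* libraries (black points) to the left of the 7 RM38-r libraries (brown points). Blue bars are the medians of the members, between -0.0426 and 0.0540, and open diamonds the medians of all eligible gene models.

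Steadiness depended on the rescaling. In the deposited RPKM the members were lower in replicate 1 of RM38-r at 300–400 mg, with a median of -0.624 on the log2 scale against their own median over libraries, and in replicate 1 of RM38-r at 400–500 mg, at -0.183. Glyma08g19520.4 had 9.46 and 13.4 deposited RPKM in these libraries and 13.7 to 16.4 deposited RPKM in the other 12. After rescaling, its values there were 14.4 and 14.9 RPKM. The members held 0.231% of all alignments in the first of these libraries and 0.309% in the second, against 0.339% to 0.393% in the other 12. On the deposited values, only 60 of the 100 had at least 10 RPKM in every library and were ranked. Of these, 6 were again among the 100 steadiest: Glyma16g32250.1, both gene models of Glyma03g00740, Glyma13g39410.1, Glyma05g30140.2 and Glyma03g32910.1. The drop to 6 thus comes in part from the minimum level. Median ratio rescaling kept 61 and quantile normalization kept 79.

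**Figure D5:**
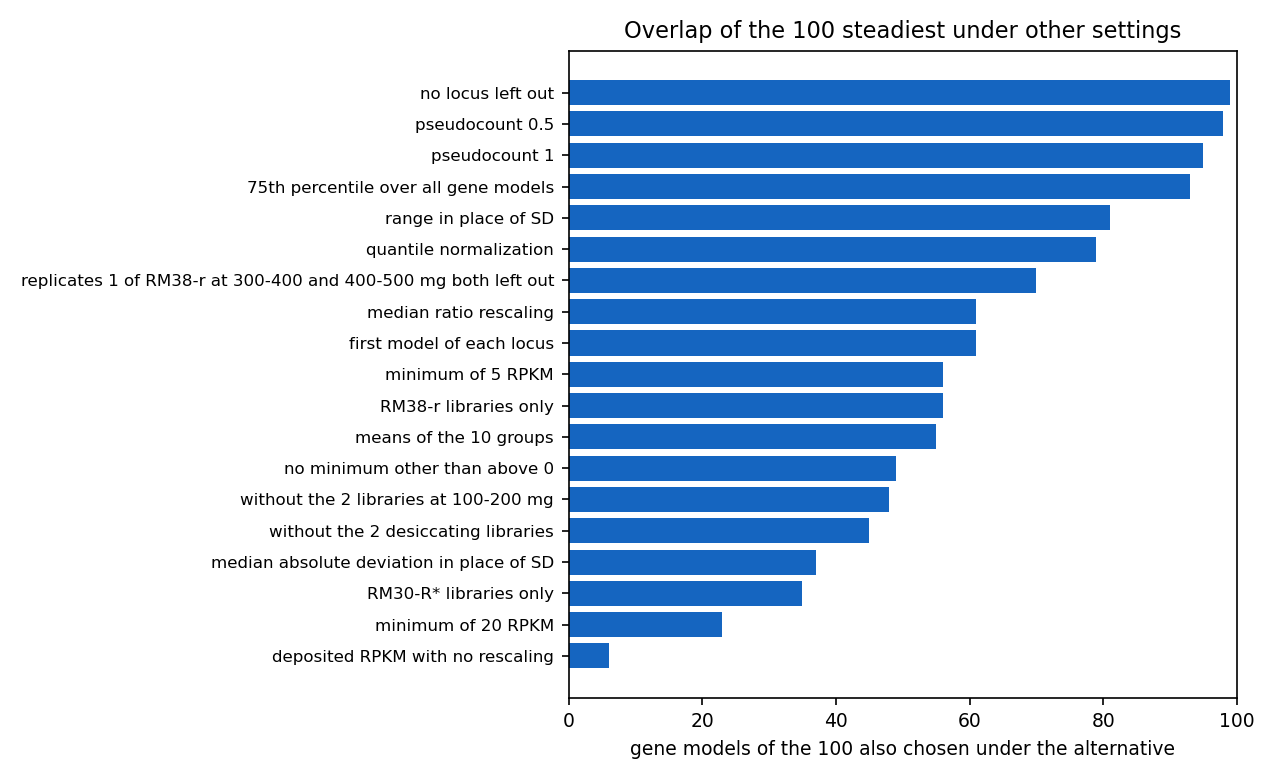
Number of the 100 members that were also among the 100 steadiest under each other way of choosing them. Bars start at 0 and run from 6 with the deposited RPKM, where only 60 members were eligible, to 99 with no locus dropped.

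Some members were chosen again under many settings. In 63 members the gene model stayed among the 100 steadiest when each of the 14 libraries was left out in turn, and 50 stayed under median ratio rescaling, quantile normalization and a 75th percentile over all gene models. Both held for 45 members of 30 loci. All of the 10 steadiest passed the first criterion and 9 the second, the exception being Glyma03g00730.1. These choices reused the libraries that had set the ranks, and members of small SD lay farthest from the threshold. Being kept therefore largely restates the rank and is no independent support for steadiness. With no rescaling, 1 of the 10 steadiest was kept, where only 60 of all members were eligible.

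Each line was also used alone to choose 100 gene models, and their spread was then read in the other line. The 100 steadiest over the 7 RM30-R* libraries alone had a median SD of 0.0666 there. In the 7 RM38-r libraries, which had no part in that choice, their median SD was 0.147, against 0.270 for the eligible gene models, and 93 of the 100 were under that median. The 100 steadiest over the RM38-r libraries had a median SD of 0.0825 there. In the RM30-R* libraries they had a median SD of 0.118, against 0.245 for the eligible gene models, and 96 were under it. These eligible gene models were not matched for level, and spread varied with level, so the figures are a description. The 100 chosen in RM30-R* alone belonged to 69 loci, and the 100 chosen in RM38-r alone belonged to 67 loci. Gene models of the same locus share reads, so the counts of 93 and 96 are not of separate loci. Of the 100 members, 35 were among those chosen in RM30-R* alone, 56 among those chosen in RM38-r alone, and 14 in both. The eligible gene models had at least 10 RPKM in both lines, while 87 of those chosen in RM30-R* had it in RM38-r and 83 of those chosen in RM38-r had it in RM30-R*.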

How the data were processed

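RNA from seed coats of RM30-R* and RM38-r was sequenced in 14 libraries. The authors aligned the reads to Glyma1 gene models with Bowtie (version 1), allowed mismatches and multiple alignments per read, counted each alignment, and deposited RPKM. Each value column was assigned to 1 library by its label. The table ended in 1 incomplete line, which was left out, and the gene models after it were not analysed here.

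The 28 gene models of loci starting with Glyma13g118 or Glyma13g119 were dropped, and each column was rescaled so that its 75th percentile, over gene models above 0 in at least 1 library, equalled the geometric mean of the 14 percentiles. Gene models with at least 10 RPKM in every library were ranked by the SD of log2 RPKM (no pseudocount), and the 100 smallest were taken. Line and stage groups came from the labels. No test was run, because every library entered the choice. Library totals and model lengths were recovered from the steps of the RPKM values. The counting SD is the Poisson SD of the resulting alignments, pooled over the 14 libraries. The ranking, and the recovery of lengths from known library totals, were tested on simulated data. The recovery of the totals themselves was not simulated. The simulated steady gene models were set far from the rest in spread, so the order near the threshold was not tested.

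The members and lists were chosen with earlier results of these data known. The text names the 10 members of smallest SD, the 5 of highest level, the 3 on each side of the threshold, the 2 in each direction with the largest line difference of one sign at all stages and with the largest difference at desiccation, and pathway genes of the study as a contrast. Loci and members behind small counts, and the pairs with alike profiles, were picked after their values were seen. Lists by function, which go by gene description, could not be applied, since none of the identifiers matched the RefSeq gene table (Glycine_max_v4.0). Common reference genes and storage proteins, some of them listed by locus name, were not examined here. No sequences are shown. Python 3.11.15 with numpy 2.4.6, pandas 2.3.3 and matplotlib 3.10.9 was used. Alternatives covered the rescaling, the minimum level, pseudocounts, the measure of spread, gene models per locus and the libraries used.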

Additional observations from a re-analysis of the deposited data

How the results depend on the processing

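Which gene models were steadiest depended on the processing, and the cause of each shift was not tested unless stated. Of the 100, the number chosen again was 6 with no rescaling (only 60 members were eligible) and 61 with median ratio rescaling. A minimum of 5 RPKM kept 56, and one of 20 RPKM kept 23 (only 23 members were eligible). With no minimum other than a value above 0, 49 were kept. The median absolute deviation kept 37. The first model of each locus kept 61 (the only members left in that table). Without the 2 desiccating libraries 45 were kept, and 48 without the 2 libraries at 100–200 mg. RM30-R* alone kept 35, RM38-r alone 56 and the means of the 10 groups 55. The number kept was 79 to 99 with quantile normalization, a 75th percentile over all gene models, no locus dropped, pseudocounts of 0.5 and 1, and the range in place of the SD. Leaving out 1 library at a time kept 67 to 94, and 70 were kept without replicate 1 of RM38-r at both 300–400 and 400–500 mg, a choice made after seeing the data.

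The median SD of the 100 chosen, 0.0938, became 0.160 with no rescaling, 0.119 with a minimum of 20 RPKM, 0.118 with the median absolute deviation, 0.0785 without the desiccating libraries, 0.0788 without those at 100–200 mg, 0.0666 with RM30-R* alone and 0.0677 with group means, and 0.0851 to 0.0935 without 1 library. No rescaling gave 2 members with RM30-R* above RM38-r at all stages (0.703% of the eligible gene models). It gave 3 with both desiccating libraries above the rest (14%) and 0 with both 100–200 mg libraries below (6.35%). Median ratio rescaling gave 27 with both desiccating libraries above, beside 18.6% of the eligible gene models, so the members passed from under the background to over it, and 3 with both 100–200 mg libraries below (17.2%). Quantile normalization gave 3 above (12.2%) and 2 below (16.8%) for desiccation, and 3 above for 100–200 mg (6.33%). Leaving out each of the 8 libraries at 300–400 and 400–500 mg gave 0 to 2 members above for the line, beside 0.305% to 0.968% of the eligible gene models. It gave 0 to 1 below, beside 0.398% to 0.597%. Leaving out each of the 14 libraries gave 5 to 13 above for desiccation (12.4% to 18.4%) and 0 to 6 below (14.6% to 25.4%). For 100–200 mg it gave 0 to 2 above (5.36% to 10.2%) and 6 to 15 below (17% to 28.5%). No paired test was run, because no result comes from a test. The mean line difference compares the lines stage by stage. The replicate numbers used here follow the order of deposition and do not link libraries of the lines. Depth limits the precision of each value: a member had at least 223 alignments in every library. Its counting SD, pooled over the 14 libraries, was at most 0.0657 on the log2 scale. A single value with few alignments has a larger counting error than this pooled figure.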
